A study of Triticum aestivum with 21 samples.

Results

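Entry into meiosis was examined in wheat anthers by setting leptotene to pachytene (LP) against pre-meiosis (PM). The comparison sets 3 arrays labelled LP against 3 labelled PM, 6 of the 21 arrays of the series. It covers every one of the 61179 probe sets that are not array controls. The spread behind the calls was estimated over all 21 arrays. In total 211 probe sets (0.345%) were called at least 2-fold different, 118 higher in LP (0.193%) and 93 lower (0.152%). The falls reached further than the rises. TaAffx.9800.1.S1_at was 7.18-fold lower in LP, whereas the largest rise, that of Ta.10107.2.S1_a_at, was 4.00-fold. Among named genes, the recombination genes DMC1 and RAD54 fell. RPA rose, but its call was lost in several other fits. Histone H2A and H2B transcripts fell or did not pass the test, and the tapetal raftins and several genes of photosynthesis rose.

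Whole anthers of the wild-type wheat cultivar Chinese Spring, a hexaploid, were collected at 7 stages. The stages after PM and LP ran to the end of anaphase I (DA, from diplotene), then to the end of meiosis II (TT, from telophase I), and on to tetrads (T), to pollen that was still immature (IP) and to mature anthers (MAN). No treatment was applied. At least 25 staged anthers were pooled per stage, and the RNA was amplified in 2 rounds and hybridized to 3 GeneChip Wheat Genome Arrays. The methods describe these as technical replicates, so every SD, SE and p below measures the spread between arrays of the same pool. None measures that between plants, and stage and pool cannot be told apart. An SD is that of 1 stage, whereas the SE and p from limma take the spread within all 7 stages unless stated otherwise.

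Leptotene is the part of prophase I in which chromosomes condense onto protein axes and programmed double strand breaks form. The broken ends are resected and coated by RPA, and recombinases such as DMC1 carry them into a homologous chromosome. Synapsis, the close alignment of homologues along the axis, is complete in pachytene. Meiocytes are only a part of the anther. Around them lie the tapetum, a secretory layer that feeds the microspores and delivers wall material to them, and the outer wall layers, which can be green.

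Levels are log2 of the deposited intensity, which the authors had normalized by RMA, a method that corrects background and brings the arrays to a common distribution. A difference of 1 is 2-fold. A mean level below 5 was taken as not expressed, the limit used in the study, and where the lower stage lay below it the change is also given as a lower bound, counted from 5. A call means an adjusted p under 0.05 from limma with Benjamini-Hochberg adjustment over all probe sets. Because whole anthers were used, fewer cells of a type and less RNA per cell cannot be told apart in any of these values.

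Over all sizes limma called 3630 probe sets (5.93% of 61179), of which 2248 (3.67%) were higher in LP and 1382 (2.26%) lower. The excess of rises was not kept in every fit. Without LP replicate 3, 775 were higher and 814 lower. Without PM replicate 3 there were 980 higher and 873 lower, and with the poly-A control level as a covariate 1445 and 1350. Most of the calls were small. The median change was 0.57 among the calls higher in LP and -0.53 among those lower, and 1618 calls reached 1.5-fold. At 3-fold or more there were 3 calls higher in LP and 13 lower. At 4-fold or more there were none higher, since the change of Ta.10107.2.S1_a_at lay just under that limit, and 4 lower. None reached 8-fold in either direction. The median over all probe sets was -0.014, and the median SE of a change was 0.128.

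Calls were more frequent at higher levels, and with all 6 arrays most of the excess of rises lay there. Where the mean of LP and PM was below 5, 0.428% of 24548 probe sets were called higher in LP and 0.619% lower. Between 7 and 9, 6.94% were higher and 4.54% lower. Above 11, 394 of 3188 probe sets (12.4%) were higher and 87 (2.73%) lower. Of the 118 rises of at least 2-fold, 6 had a PM mean below 5, and of the 93 falls 18 had an LP mean below 5. The rule of 2-fold cuts through a continuous range, with the smallest change inside it at 1.0 and the largest call outside it at 0.999.

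**Figure D1:**
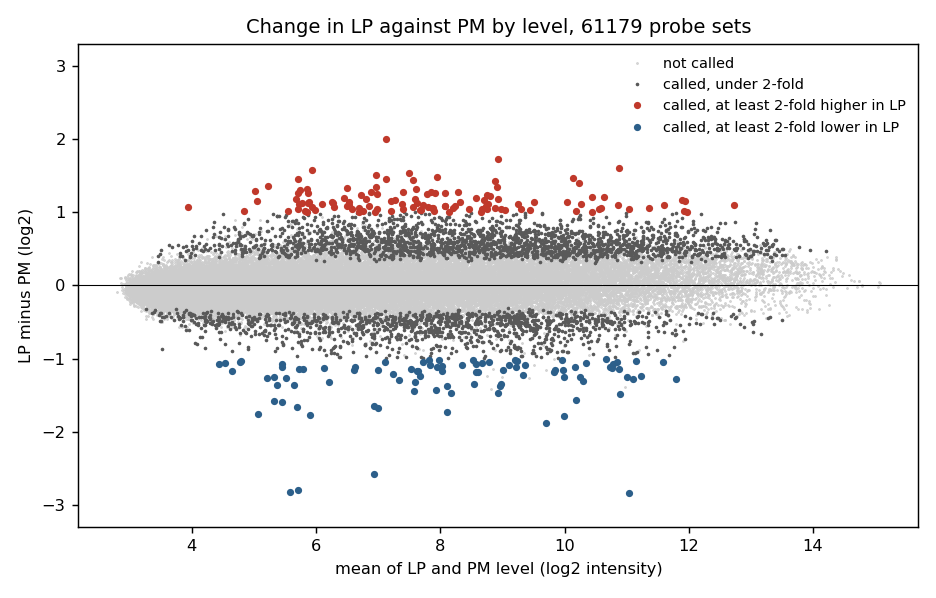
Change in LP against PM (LP minus PM, log2) on the vertical axis and the mean of the LP and PM levels (log2 intensity) on the horizontal axis, with 1 point for each of 61179 probe sets. Blue points, the 93 called at least 2-fold lower in LP, reach to -2.84, and red points, the 118 called at least 2-fold higher, reach to 2.0.

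The 3 LP arrays all lay above the 3 PM arrays for 7329 probe sets (12%) and all below them for 6997 (11.4%). Among the 211 probe sets called at least 2-fold, the arrays of the stages did not overlap in 210.

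The most extreme falls were 4 probe sets that stood apart from all others. TaAffx.9800.1.S1_at read 9.60, 9.53 and 9.70 in LP, against 12.35, 12.69 and 12.31 in PM. It was thus among the bright transcripts in PM and fell by 2.84 in LP (SE 0.131, adjusted p = 9.1e-13, limma). Its mean went on to 8.53 in DA and 6.62 in T, and stood at 13.12 in IP and 11.99 in MAN.

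Ta.6831.1.S1_at read 3.90, 4.14 and 4.48 in LP, against 6.78, 7.19 and 7.01 in PM. All of its LP arrays were below the limit of expression and all of its PM arrays above it. The measured difference was -2.82, and the fall was at least 3.98-fold when counted from 5. The transcript was back in TT, with a mean of 7.85 ± 0.285 (SD, n = 3), and stayed between 5.62 and 8.03 thereafter.

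Ta.16669.1.S1_x_at behaved alike on entry but did not return. It read 4.12, 4.33 and 4.50 in LP, against 6.84, 7.51 and 6.98 in PM, a fall of at least 4.32-fold (measured difference -2.80, SE 0.152). Its means in the 5 later stages lay between 4.04 and 5.04.

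The candidate transcript WMC10 (TaAffx.38162.1.S1_at) read 5.81, 5.71 and 5.42 in LP, against 8.06, 8.53 and 8.08 in PM. It was 5.97-fold lower in LP (log2 difference -2.58, SE 0.141, adjusted p = 1.5e-11, limma), and LP was its lowest stage. Its later means were 6.74 in DA, 8.90 in TT, 11.72 in T, 9.66 in IP and 13.46 in MAN.

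The other falls among the 12 lowest changes ranged from -1.88 to -1.60, and none of these probe sets has a gene name in the annotation used here. They separate by what they did next. TaAffx.11970.1.S1_s_at, Ta.16123.1.A1_at and Ta.22074.1.S1_at had their highest mean in PM and stayed low. TaAffx.11970.1.S1_s_at read 8.76, 8.52 and 9.0 in LP, against 10.73, 10.50 and 10.70 in PM, and its later means were at most 8.37, with 5.46 in MAN. A further probe set that shares its cluster number, TaAffx.11970.3.S1_s_at, had a mean of 4.89 ± 0.352 in LP and 6.15 ± 0.238 in PM (SD, n = 3 each). It was at least 2.22-fold lower in LP.

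Others were low in LP and back in DA. TaAffx.128541.69.S1_at read 5.16, 4.86 and 5.01 in LP, against 6.72, 7.05 and 6.57 in PM, and its mean was 7.08 in DA. LP was its lowest stage. TaAffx.3462.1.S1_at had means of 4.86 in LP and 6.52 in PM, and 6.57 in DA. Its fall was at least 2.86-fold, and it was low again in IP, at 4.85.

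A low in LP followed by a return in DA was seen across a whole cluster. Probe set names that share a number were designed from sequences grouped together, and Ta.9216 was the cluster with the most members called at least 2-fold the same way, all 4 of its 4 probe sets. Ta.9216.1.A1_x_at read 7.31, 7.54 and 7.46 in LP, against 8.94, 8.88 and 8.90 in PM, a difference of -1.46 (SE 0.123). The other members differed by -1.43, -1.10 and -1.09. In DA the 4 means were between 9.06 and 9.46, above those of both earlier stages, and in MAN they were between 5.24 and 7.06. The 4 probe sets can report the same transcripts and are not independent of each other.

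**Figure D2:**
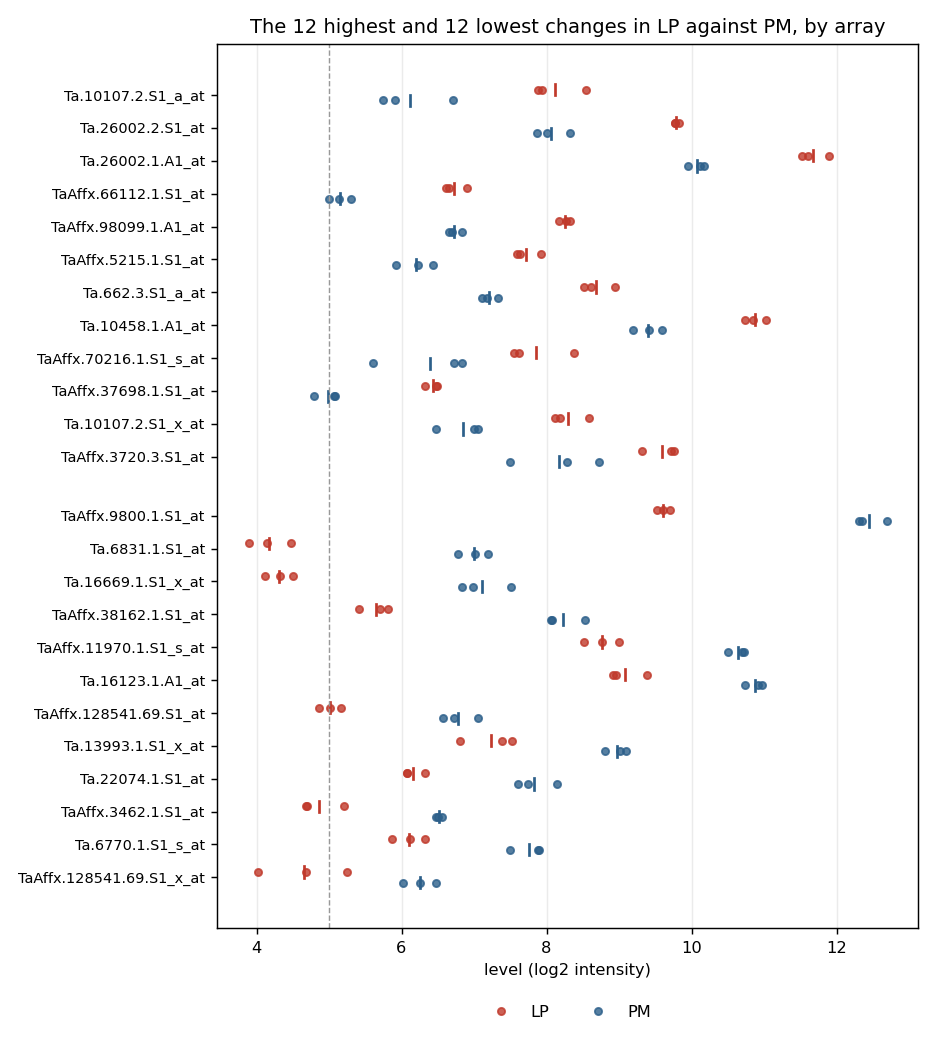
Level on each array (log2 intensity, horizontal axis) for the 12 highest and the 12 lowest changes among called probe sets whose arrays did not overlap, with LP in red and PM in blue. Short bars mark the mean of 3 arrays and the dashed line the level of 5 taken as expressed. LP and PM points are apart in all 24 rows, and the first 4 rows of the lower block show the widest gaps.

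The rises were smaller and more even. Ta.10107.2.S1_a_at read 7.94, 7.88 and 8.54 in LP, against 6.71, 5.74 and 5.91 in PM (difference 2.0, SE 0.198, adjusted p = 5.9e-07, limma). Its PM arrays spread over almost 1 log2 unit. The probe set Ta.10107.2.S1_x_at, of the same cluster, differed by 1.44. Their means were 8.11 and 8.45 in DA and 11.06 and 11.18 in MAN, with a low in IP.

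Both probe sets of the cluster Ta.26002 had higher means in each stage up to the tetrads. Ta.26002.2.S1_at read 9.83, 9.77 and 9.77 in LP, against 8.32, 7.87 and 8.01 in PM. Ta.26002.1.A1_at read 11.61, 11.53 and 11.89 in LP, against 10.17, 9.95 and 10.12 in PM. PM was the lowest stage of both, and T the highest, at 12.79 and 14.15.

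Another 4 rose in LP and had their highest mean in DA. TaAffx.98099.1.A1_at read 8.27, 8.17 and 8.33 in LP, against 6.69, 6.83 and 6.66 in PM, and its mean was 9.31 in DA and 4.63 in MAN. Ta.10458.1.A1_at had means of 10.87 ± 0.146 in LP and 9.40 ± 0.199 in PM (SD, n = 3 each), and 11.67 in DA. TaAffx.5215.1.S1_at and TaAffx.66112.1.S1_at were the others, with DA means of 8.31 and 6.95.

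Only 2 of the 12 highest changes had their highest mean in LP itself. TaAffx.37698.1.S1_at read 6.49, 6.33 and 6.48 in LP, against 5.08, 5.07 and 4.79 in PM, so that it was at least 2.70-fold higher. Its DA mean was 5.41. TaAffx.3720.3.S1_at had means of 9.60 in LP and 8.17 in PM, and 8.64 in DA, with 1 PM array down at 7.50.

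Of the genes of strand exchange, which act in the search for and invasion of the homologous chromosome, DMC1 and RAD54 fell and RPA rose, against 2.26% of all probe sets called lower and 3.67% higher. Between levels of 9 and 11, 5.88% were called lower and 9.41% higher. The list has 5 probe sets, of which 2 did not pass. The study chose these transcripts, and those of pairing and mismatch repair below, partly by their meiotic profiles in these samples. Their counts are therefore not independent evidence of a direction. DMC1, the recombinase specific to meiosis, read 11.24, 11.14 and 11.17 in LP, against 11.84, 11.82 and 11.76 in PM. The stages did not overlap, and DMC1 was 1.54-fold lower in LP (difference -0.62, SE 0.114, adjusted p = 0.00138, limma). It remained a bright transcript in LP and had a mean of 10.37 in DA.

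RAD54, which acts in strand exchange, read 9.40, 9.35 and 9.44 in LP, against 10.46, 10.53 and 10.18 in PM. The fall was 1.99-fold (difference -0.99, SE 0.127, adjusted p = 2.1e-05, limma), and the DA mean of 9.32 was close to that of LP.

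RPA, which binds single-stranded DNA, went the other way. It read 9.99, 9.89 and 10.39 in LP, against 9.78, 9.32 and 9.62 in PM, and was 1.43-fold higher (difference 0.52, SE 0.139, adjusted p = 0.0261, limma). Leaving out LP replicate 3, PM replicate 2 or PM replicate 3 ended this call (adjusted p = 0.222, 0.142 and 0.0632 from limma). So did limma on the LP and PM arrays only (adjusted p = 0.105), with the poly-A covariate (0.0736) and with array weights (0.0713). The calls of DMC1 and RAD54 were kept in these fits. LP was its highest stage, and its DA mean was 9.16.

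None of the 4 transcripts of pairing and mismatch repair passed the test in limma, and 1 of them had an unadjusted p under 0.05 there and 1 in the methods' t-test, the equal-variance test that the study used, run here on the LP and PM arrays alone. ASY1, an axis protein needed for synapsis, averaged 10.84 ± 0.0839 in LP and 10.90 ± 0.044 in PM, and its arrays overlapped. PHS1, which acts in homologous pairing in maize, averaged 10.23 ± 0.0733 in LP and 10.43 ± 0.0939 in PM. MSH4, which acts in crossover formation, averaged 7.98 ± 0.0645 in LP and 8.32 ± 0.251 in PM (difference -0.33, adjusted p = 0.0929, limma), and was called lower when PM replicate 3 was left out (adjusted p = 0.0187). MSH6, of mismatch repair, averaged 5.67 ± 0.0758 in LP and 5.89 ± 0.583 in PM, and its sign turned when PM replicate 2 was left out. Over ASY1, DMC1, PHS1 and MSH4, taken as markers of meiocytes, the mean level ran from 10.01 to 10.11 over the LP arrays and from 10.28 to 10.43 over the PM arrays. The study measured further transcripts by quantitative PCR, whose values are not used here. On the arrays, limma called RPA and the candidates WMC3, WMC5 and WMC6 of these higher in LP, and RAD54, WMC4 and WMC10 lower. The marker mean thus depends on which transcripts are chosen.

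Of 6 candidate transcripts that the study chose for its quantitative PCR, 3 rose, 2 fell and WM5 did not pass. Of all probe sets 3.67% were called higher and 2.26% lower. The study chose the candidates on these same samples, so their counts are not independent evidence of a direction. WMC5 read 8.46, 8.19 and 8.27 in LP, against 7.27, 7.48 and 7.25 in PM, and was 1.97-fold higher. WMC3 read 8.40, 8.39 and 8.25 in LP, against 7.48, 7.66 and 7.52 in PM, and was 1.73-fold higher. The adjusted p from limma was 6.1e-04 for WMC5 and 4.4e-05 for WMC3.

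WMC6 was 1.47-fold higher (means 9.10 in LP and 8.55 in PM, adjusted p = 0.0421, limma), and 5 of the 6 omissions of an array ended its call, with adjusted p of up to 0.206 (without PM replicate 2). These 3 candidates had their highest mean in LP, and each was lower in DA than in PM. WMC4, in contrast, read 6.98, 7.19 and 7.42 in LP, against 8.2, 8.40 and 7.95 in PM, and was 1.98-fold lower. WMC10 is described above. WM5, among the brightest of these transcripts, averaged 13.44 ± 0.0427 in LP and 13.26 ± 0.123 in PM.

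Of 4 transcripts that the study names as early, again chosen on these samples, 3 fell in LP, against 2.26% of all probe sets. Ta.400.2.A1_at, which the study matched to a putative condensin subunit of rice, read 5.16, 5.12 and 5.34 in LP, against 6.16, 6.33 and 6.02 in PM. Condensin compacts chromosomes. The difference was -0.96 (SE 0.131, adjusted p = 4.4e-05, limma), and the means of the later stages were below 5. TaAffx.86700.1.S1_at was at least 2.16-fold lower in LP (means 4.53 in LP and 6.11 in PM). TaAffx.29005.1.S1_at averaged 6.07 ± 0.436 in LP and 5.63 ± 0.304 in PM, did not pass, and was called higher in LP when LP replicate 3 was left out (adjusted p = 0.0487, limma). The study also plotted WMC10 and 6 other transcripts for their large range in meiosis, and of the other 6, 5 fell, against 2.26% of all probe sets. Beside TaAffx.9800.1.S1_at, Ta.6831.1.S1_at and Ta.16669.1.S1_x_at these were Ta.10020.1.S1_at at -1.38 and Ta.6922.1.S1_at at -0.93. TaAffx.60258.2.S1_s_at did not pass, with means of 10.90 in LP and 11.11 in PM, and was 8.02 in DA.

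Core histones H2A and H2B package newly replicated DNA, and their transcripts are made mostly in S phase. Of 9 probe sets for H2A (3 genes) 1 fell and 8 did not pass, where 2.73% of all probe sets above a level of 11 were called lower, and the median difference was -0.24. Of 9 probe sets for H2B (2 genes) 2 fell and 7 did not pass, with a median of -0.32. Over all probe sets the median was -0.014. Ta.27657.1.S1_at, of H2A, read 12.75, 12.69 and 12.85 in LP, against 13.44, 13.22 and 13.24 in PM (difference -0.53, adjusted p = 0.00552, limma). The H2B probe sets Ta.7378.1.S1_at and Ta.7378.1.S1_x_at differed by -0.52 and -0.51 and belong to the same cluster, and without PM replicate 3 that of -0.52 did not pass (adjusted p = 0.067, limma). Both groups of histones stayed bright in LP, with a mean level of at least 11.35 on every LP array for H2A and 11.82 for H2B.

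Tubulins, the subunits of the microtubules that form the spindle, did not move together. Of 10 probe sets 1 rose, 1 fell and 8 did not pass, where 12.4% of all probe sets above a level of 11 were called higher and 2.73% lower. The alpha tubulin probe set Ta.723.1.S1_at read 7.73, 7.58 and 7.82 in LP, against 6.71, 6.85 and 7.10 in PM, and was 1.77-fold higher (adjusted p = 0.0018, limma). A far brighter probe set of the same gene, Ta.812.1.S1_x_at, did not pass. Its means were 14.01 in LP and 13.84 in PM (difference 0.17, adjusted p = 0.457, limma). The beta tubulin probe set Ta.214.2.A1_at was lower by a difference of -0.45 (adjusted p = 0.0423, limma), and this call was lost in each of the 6 omissions of an array.

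All 4 probe sets for the raftins, from 2 genes, rose, against 3.67% of all probe sets and 12.4% of those above a level of 11. All but Ta.4195.1.S1_at can also match other genes or sequences, by the endings of their names (explained below). The 4 probe sets can thus report the same transcripts and are not independent of each other. Raftins are made in the wheat tapetum and carried to the microspores, and they serve here as tapetal markers. Ta.4195.1.S1_at, of raftin1a, read 13.13, 13.08 and 13.34 in LP, against 12.76, 12 and 12.20 in PM (difference 0.86, SE 0.173, adjusted p = 0.00297, limma). Ta.4091.1.S1_s_at, of raftin1b, read 12.32, 12.31 and 12.90 in LP, against 11.98, 10.92 and 11.17 in PM (difference 1.15, SE 0.22, adjusted p = 0.00199, limma). The other differences were 0.84 and 0.69. Without LP replicate 3 the lowest of them, Ta.4176.1.S1_x_at, did not pass (adjusted p = 0.0934, limma). In all 4 the PM array nearest to LP was replicate 1. The mean raftin level ran from 11.95 to 12.38 over the LP arrays and from 10.89 to 11.59 over the PM arrays. Raftin transcripts were thus already abundant in PM, and they peaked in IP.

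Genes of photosynthesis rose at 4 of 5 probe sets, from 3 genes, against 3.67% of all probe sets. By level, 6.94% rose at 7 to 9, 9.41% at 9 to 11 and 12.4% above 11, and the called members lay in each of these ranges. PsbP, a subunit of the oxygen-evolving side of photosystem II, read 11.44, 11.51 and 11.96 in LP, against 11.25, 10.36 and 10.90 in PM at Ta.85.1.S1_at (difference 0.80, adjusted p = 0.00332, limma). The second PsbP probe set differed by 0.90. PRK, phosphoribulokinase of the Calvin cycle, read 9.57, 9.50 and 9.94 in LP, against 9.18, 9.16 and 9.13 in PM, and was 1.43-fold higher. Its call ended without LP replicate 3 (adjusted p = 0.195, limma) and without PM replicate 2 or PM replicate 3. The Calvin cycle enzyme fructose-bisphosphatase had 2 probe sets that disagreed. Ta.439.1.S1_at was 1.67-fold higher in LP, while TaAffx.106041.1.S1_at had means of 7.66 in LP and 8.40 in PM (difference -0.73, adjusted p = 0.0628, limma) and was called lower when PM replicate 1 or PM replicate 2 was left out. The mean level over the list ran from 8.80 to 9.04 on the LP arrays and from 8.13 to 8.63 on the PM arrays.

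The raftin level and the level of the photosynthesis list were thus higher on every LP array than on every PM array, while that of the meiocyte markers was lower on every LP array, with DMC1 the only one of the 4 that was called. The part of the cell makeup of the pools in these differences and in the other changes was not tested.

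A few other annotated calls were chosen after their values were seen. Trx-M, a chloroplast thioredoxin, averaged 9.71 in LP and 8.73 in PM (difference 0.98, adjusted p = 0.00265, limma). RISP, the Rieske protein of the photosynthetic electron chain, averaged 11.16 in LP and 10.55 in PM. The catalase wcat1 averaged 9.26 in LP and 8.53 in PM. A probe set for rbcl, the large subunit of Rubisco, was called lower, with means of 3.3 in LP and 3.74 in PM that are both below the limit of expression. In all, 200 probe sets carry a gene name or synonym, and of these 22 (11%) were called higher in LP and 5 (2.50%) lower, against 3.67% and 2.26% of all probe sets.

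Translation factors and ribosomal proteins had 2 of 7 probe sets higher, against 3.67% of all probe sets and 12.4% of those above a level of 11. They were eIF4E, which binds the cap of messenger RNA (Ta.14707.1.S1_at, 1.43-fold), and the probe set Ta.165.1.S1_at, annotated with the synonym eIF-2-beta, a translation initiation factor (1.4-fold). Neither call held without LP replicate 3 (adjusted p = 0.0502 and 0.114, limma) or without PM replicate 3. Of the profilins, actin-binding proteins that abound in pollen, 1 of 2 probe sets rose (Ta.5057.1.S1_x_at, means 10.64 in LP and 9.96 in PM), and without LP replicate 3 its adjusted p was 0.0521 in limma.

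In 9 further lists, for starch, gibberellin 20-oxidase, heat shock, late embryogenesis, seed storage, defence, antioxidant, cell wall and membrane transport genes, limma called none of 24 probe sets. Of all 61179 probe sets it called 5.93%, so that none of 24 is little apart from that share. At an unadjusted p under 0.05, limma had 2 of the 24 and the methods' t-test none, where 11677 and 8068 of all 61179 probe sets passed. The largest of the differences named from these lists was -0.30, for the late embryogenesis probe set Ta.23797.1.S1_x_at, which was below 5 in both stages. The 2 transcripts that the study used as stable references in its quantitative PCR differed by -0.10 and 0.12.

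**Figure D3:**
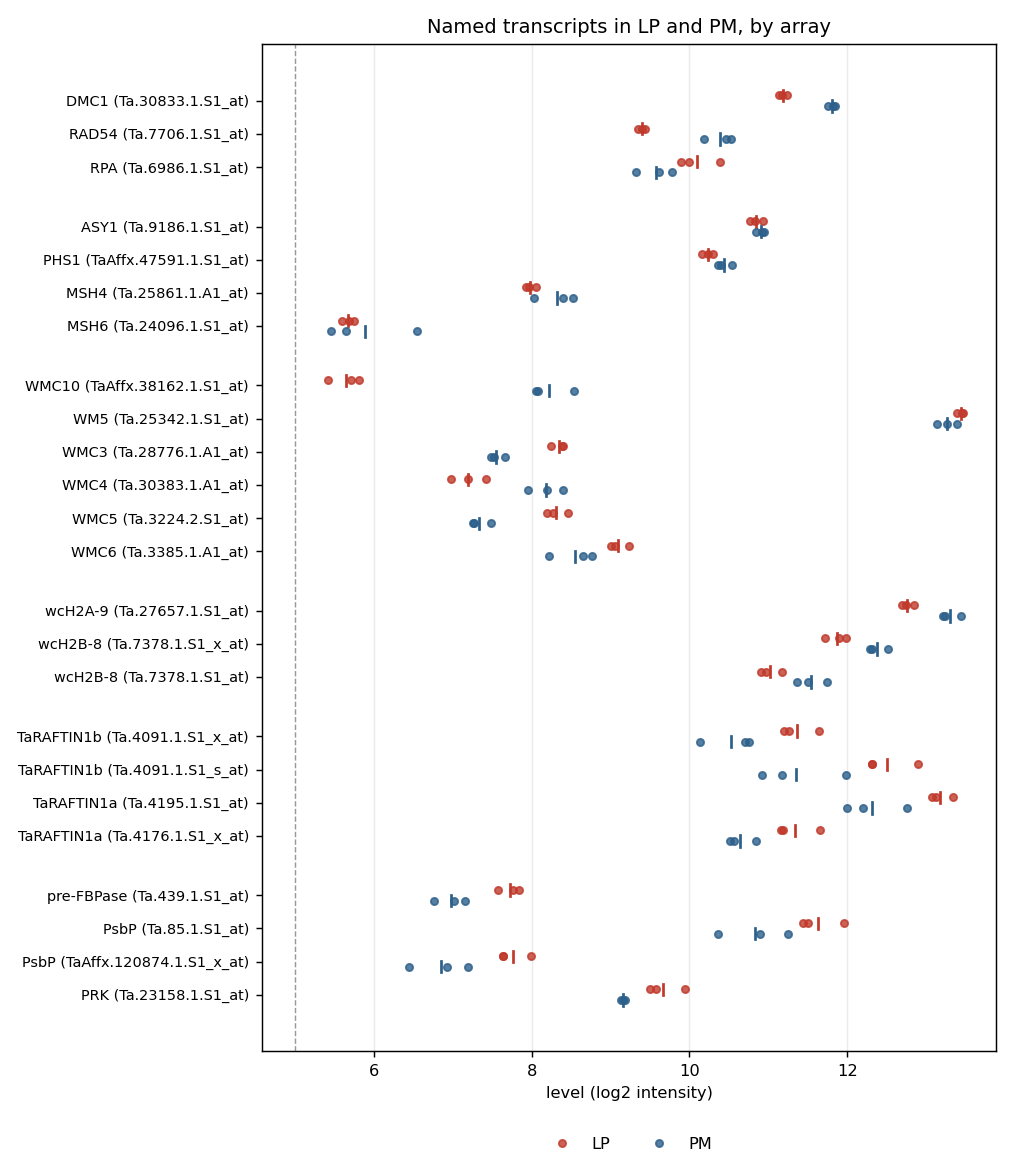
Level on each array (log2 intensity, horizontal axis) of DMC1, RAD54, RPA, pairing and mismatch repair genes, candidate transcripts, called histones, raftins and called genes of photosynthesis, with LP in red, PM in blue and short bars at the mean of 3 arrays. DMC1 and RAD54 lie lower in LP, ASY1 overlaps, and every raftin has its LP points above its PM points.

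The kind of probe set moved with the direction of the call. Names that end in _a_at mark probe sets that match several transcripts of 1 gene, those in _s_at match several genes, and those in _x_at hold probes that also match other sequences. Of 3321 probe sets ending in _a_at, 467 (14.1%) were called higher in LP and 80 (2.41%) lower, with a median difference of 0.148. Of 48453 ending in _at alone, 1117 (2.31%) were higher and 1073 (2.21%) lower. The gap stayed at like levels. Between 7 and 11, 16.9% of the _a_at probe sets and 5.39% of the _at probe sets were called higher in LP.

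It was visible on single arrays as well. The median of the _a_at probe sets, each taken from its mean over 21 arrays, was 0.15, 0.088 and 0.25 on the LP arrays, against 0.037, 0.02 and -0.03 on the PM arrays. On the 15 arrays of the other stages it ran from -0.355 to 0.102, so LP replicates 1 and 3 were above every other array. With _at probe sets alone limma called 988 higher and 922 lower, that is 51.7% higher in place of 61.9%. Of the 118 rises of at least 2-fold 29 end in _a_at, and of the 93 falls 5 do. The letter before the last number of the name split the calls too. Probe sets with the letter A made up 39 of the 93 falls and 17 of the 118 rises, where 10643 of all 61179 probe sets carry that letter.

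**Figure D4:**
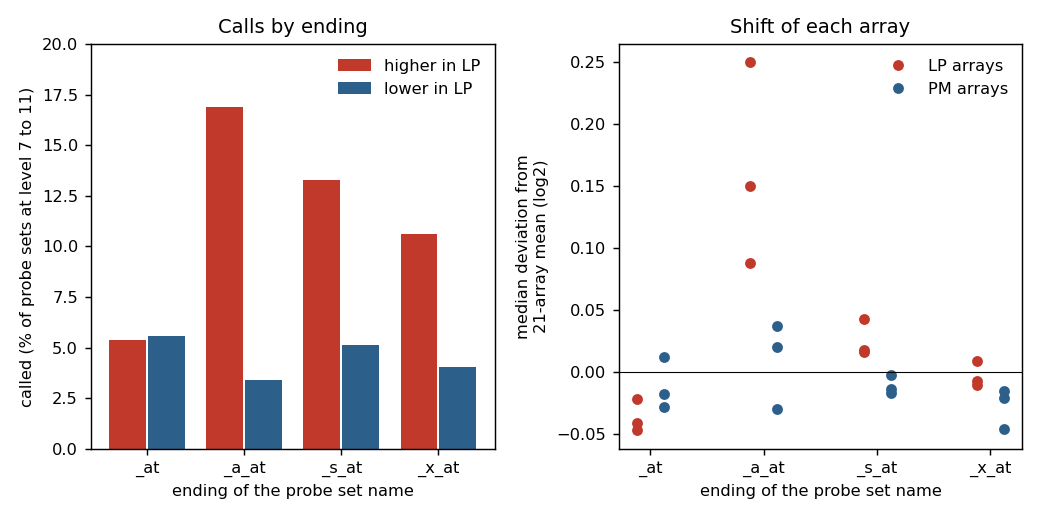
Left, share of probe sets at level 7 to 11 called higher (red) and lower (blue) in LP, by the ending of the name. Right, median deviation of each array from the 21-array mean (log2), with 3 LP and 3 PM arrays per ending. The _a_at probe sets have 16.9% called higher, and their LP points at 0.088 to 0.25 lie above the PM points.

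The poly-A controls, added to the RNA before amplification, averaged 7.22, 7.04 and 7.50 on the LP arrays, against 6.94, 7.09 and 6.80 on the PM arrays. The stages overlapped (difference 0.315, exact two-sided permutation p = 0.2, where 0.1 is the smallest that 3 against 3 can give). The hybridization controls averaged 10.40, 10.14 and 10.18 on the LP arrays, against 10.35, 10.26 and 10.39 on the PM arrays (exact two-sided permutation p = 0.4). For 7 wheat control genes with probe sets along the transcript, 14 differences between a 5' or middle probe set and the 3' one were formed. Of these 6 were higher on every LP array than on every PM array, 3 were lower and 5 overlapped. The middle of ef1a relative to its 3' end was 0.447, 0.572 and 1.22 in LP, against 0.049, -0.169 and -0.471 in PM. The part of amplification in the calls was not tested. With the poly-A level as a covariate 84 rises and 110 falls of at least 2-fold were called.

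Probe sets that share a cluster may report the same transcripts, so their agreement is given as a description and is not an independent check. The 211 calls of at least 2-fold came from 184 clusters, 24 of which held more than 1 such call, never in opposite directions. These clusters have 405 other probe sets, of which 78 were called the same way at a smaller size, 4 the opposite way and 323 not at all. Of all probe sets 3.67% were called higher and 2.26% lower. Of the 144 with a level of 7 or more, 123 had the same sign.

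The falls were steadier than the rises when single arrays were left out. All but 1 of the 93 falls, that is 92, were called in the same direction in each of the 6 fits without an array, and 65 stayed at 2-fold or more in all of them. Of the 118 rises 96 were called in each, and 42 stayed at 2-fold or more. The number of rises moved with single arrays. Without LP replicate 3 68 rises and 110 falls of at least 2-fold were called, without LP replicate 2 there were 182 rises, and without PM replicate 1 there were 208. The total of all sizes was 1589 without LP replicate 3, 1853 without PM replicate 3 and 2350 without LP replicate 1. After scaling the arrays to the hybridization controls, 17 rises and 15 falls were called, and the methods' t-test with adjustment called Ta.15825.1.S1_at alone. This probe set read 11.25, 11.25 and 11.21 in LP, against 10.05, 10.04 and 10.01 in PM.

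The later stages of the 211 probe sets were then followed. Among the 93 that were lower in LP, the fall was mostly kept. The DA mean was at or below the LP mean in 48 and nearer to LP than to PM in a further 29, while 5 were nearer to PM and 11 were back at or above it. Their median level relative to PM was -1.17 in LP, -1.17 in DA, -1.13 in TT and -1.18 in T, and then -1.98 in IP and -2.71 in MAN. For 62 of the 93 no stage was higher than PM, and for 58 MAN was the lowest. The positions in DA, all levels relative to PM and the counts of highest and lowest stages share the choice of members through LP and PM. They are given with no test.

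Among the 118 that were higher in LP, the median was lower in every stage after it. These values share the choice of members in the same way, since high LP values were selected, and are given with no test. In DA 25 were at or above LP, 35 nearer to LP than to PM, 49 nearer to PM and 9 back at or below it. The median level relative to PM was 1.12 in LP, 0.58 in DA, 0.55 in TT, 0.46 in T, 0.68 in IP and -1.34 in MAN. LP was the highest stage for 52, IP for 33 and DA for 19. Of the 25 that went beyond LP in DA 1 ends in _a_at, and of the 49 that fell nearer to PM 18 do.

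**Figure D5:**
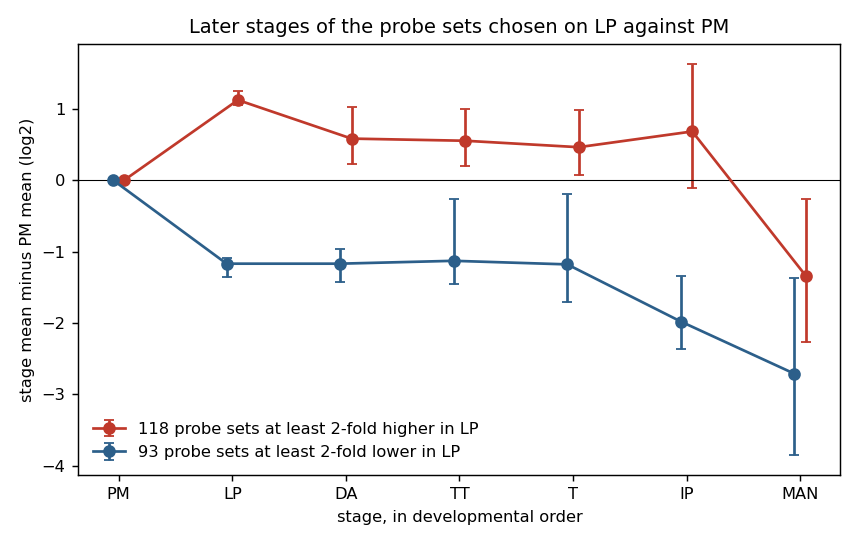
Stage mean minus PM mean (log2, vertical axis) over the 7 stages in developmental order, as the median of the probe sets with bars from the lower to the upper quartile, for the 118 called at least 2-fold higher in LP (red) and the 93 called at least 2-fold lower (blue). The red median is 0.58 in DA after 1.12 in LP, and the blue median stays at -1.17 before it falls further in IP and MAN. The PM and LP points show the choice of the probe sets.

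Steps between later stages compare neither LP nor PM means. The SE of each probe set was estimated over all 21 arrays, however, so that the choice of the probe sets and the calls at these steps share it, and the shares below are a description. Like level means from 7.19 to 10.47 beside the 93 and from 7.1 to 9.48 beside the 118, the same at every step. These limits equal the quartiles of the 93 in PM and of the 118 in LP. Members outside them were counted too, and the level at the step itself was not matched. From tetrads to immature pollen, 68 of the 93 probe sets lower in LP (73.1%) fell again, against 9.28% of all probe sets and 16.7% of 14125 other probe sets of like level. With arrays scaled to the hybridization controls, where 15 falls were called, the share was 13.3%. Only 5 of the 93 (5.38%) rose at this step in the main fit, against 8.01% of all probe sets and 16.4% of those of like level. Of the 118 higher in LP, 48 (40.7%) rose from T to IP and 31 (26.3%) fell, against 8.01% and 9.28% of all probe sets and 16.3% and 15.3% of 11267 others of like level. From IP to MAN, 90 of the 118 (76.3%) fell, against 25.6% of all probe sets and 52.2% of those of like level. Of the 93, 57 (61.3%) fell and 21 (22.6%) rose at this last step, against 25.6% and 38.6% of all probe sets and 55.6% and 27.5% of those of like level.

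The steps within meiosis moved fewer of them. From DA to TT, 18 of the 93 (19.4%) rose and 6 (6.45%) fell, against 1.29% and 1.25% of all probe sets and 2.73% and 3.28% of those of like level. Ta.6831.1.S1_at and WMC10 were among those that rose. Of the 118, 7 (5.93%) rose and 13 (11%) fell at the same step, against 2.47% and 3.1% of those of like level. From TT to T, 11 of the 93 (11.8%) rose and 9 (9.68%) fell, against 5.76% and 8.51% of those of like level. Of the 118, 8 (6.78%) rose and 21 (17.8%) fell, against 5.45% and 7.62% of those of like level. Of all probe sets 3.13% rose and 3.09% fell.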

How the data were processed

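The authors derived the deposited intensity values with RMA (version not given in the sources used here). They are linear, so each was converted to log2. The table holds 61290 probe sets on 21 arrays, of which 111 control probe sets were set aside. Probe sets that the study discarded for technical reasons are not marked and were kept.

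The test was limma 3.58.1 under R 4.3.3, with 1 mean per stage over all 21 arrays, lmFit and eBayes (14 residual and 10.64 prior degrees of freedom), and Benjamini-Hochberg adjustment over 61179 probe sets. The methods' t-test assumed equal variances on the 6 LP and PM arrays. The fit was tested on simulated data. The number of arrays, 3 per stage, limits the precision. Python 3.11.15 with numpy 2.4.6, pandas 2.3.3 and matplotlib 3.10.9 served for summaries and plots.

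Gene names came from the platform annotation (1273 probe sets with 1 symbol, the others none), of which 1272 were found in RefSeq (IWGSC CS RefSeq v2.1), used for names only, and 200 had a name or synonym. Named were the 12 highest and 12 lowest called changes without overlap and with a mean above 6, every probe set the study names in its lists, up to 6 called members of each symbol list or its member of lowest p, and the largest cluster. Of 25 lists, those for histones H1, H3 and H4, cell cycle and transcription factors matched no probe set. Some members of the strand exchange list are not reported here. Members and lists were chosen with earlier results of these data known. Alternatives were other tests, samples, scalings, covariates, filters and thresholds.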

Additional observations from a re-analysis of the deposited data

How the results depend on the processing

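In place of 3630 calls for LP against PM (211 reaching 2-fold), Student's test as in the methods gave 1 (1) with adjustment and 8068 without, limma gave 1883 on the LP and PM arrays only, 5761 without IP and MAN, 1910 (126) without _s_at, _x_at and _a_at probe sets, 32 (32) with arrays scaled to the hybridization controls and 1472 at an adjusted p under 0.01. Leaving out 1 array gave 1589 to 4056 calls and 178 to 313 of at least 2-fold. The poly-A covariate (2795 and 194), array weights (4779 and 169), median centring (3383 and 215), the level filter (4052 and 209) and the eBayes trend (3611 and 211) stayed within 1.5 times. With the poly-A covariate 51.7% of calls were higher in LP. Scaling to the hybridization controls moved the median of all probe sets to 0.081. These controls ran from 8.69 to 11.3 on the arrays of later stages, whose spread enters the shared SE.

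The numbers of the replicates do not pair the arrays. Deviations of same-numbered LP and PM arrays correlated at -0.119, -0.124 and -0.228. With the replicate block limma called 3663 probe sets, 211 of them at least 2-fold, and it changed no call of the 76 named probe sets.

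Of the 97 members of the gene lists, some of them chosen by the study on these samples, 32 were called, against 5.93% of all probe sets. The methods' t-test with adjustment called 0 of them, scaling to the hybridization controls 5, and omission of an array 25 to 34. Of 56 named calls, 31 were lost with that scaling, 7 with the LP and PM arrays only, 3 with the poly-A covariate and up to 8 (LP replicate 3) with an array left out. ASY1 turned to 0.03 with that scaling, and over the omissions of an array MSH6 ran from -0.43 to 0.11 and the cell wall probe set Ta.30703.1.S1_at from -0.01 to 0.30, each turning without PM replicate 2. None of these was a call. The share of the probe sets lower in LP that fell again in IP against T was 13.3% with that scaling, of 15 probe sets, while it was 75% with the level filter, 70.7% with median centring and 73% with array weights, and the methods' t-test left too few to give a share. A level near or below 5 bounds a change rather than measuring it.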
